A study of Mus musculus with 3 samples.

Results

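The genes described here are 10 genes of microglia and of complement component C1q: C1qa, C1qb, C1qc, Cx3cr1, Csf1r, Tyrobp, Fcer1g, Aif1, Cd14 and Lyz2. They were chosen by name, as every probe set whose only gene symbol in the platform annotation was one of the 10. All 10 were found, as 14 of the 12422 non-control probe sets and 10 of the 8251 named genes. Of the 10 genes 4 (C1qb, Csf1r, Fcer1g and Lyz2) had 2 probe sets, and 1 further probe set annotated to both Lyz1 and Lyz2 was not used. The data came from Affymetrix MG-U74Av2 arrays, on which total RNA is read by short oligonucleotide probes grouped into probe sets. There were 3 samples, all in 1 group and each on 1 array: pools 1, 2 and 3, numbered as names only. Each pooled the neural retinas of 3 to 4 wild-type mice killed at postnatal day 7 (P7), which were littermates of animals lacking Rp1, had mixed 129/SvEv and C57BL/6 ancestry, and had their retinas taken from 1 to 2 pm. No treatment or second genotype was present, so what the arrays can show is where these genes had signal and how their values varied from pool to pool. Microglia are a small part of the retina, and in whole tissue fewer cells of a type and less RNA per cell cannot be told apart.

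Microglia are the resident macrophages of the central nervous system. In the developing retina they clear dying neurons and take part in the removal of surplus synapses. C1q, built from the A, B and C chains that C1qa, C1qb and C1qc encode, starts the classical complement cascade, and in the brain and retina microglia are its main source. Cx3cr1 and Csf1r are the receptors through which microglia respond to fractalkine and to colony-stimulating factor, and Tyrobp and Fcer1g are adaptor proteins that pass signals from surface receptors to the kinase Syk.

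C1qb, C1qc and C1qa lie beside each other on mouse chromosome 4, as neighbouring protein-coding genes in RefSeq's table of assembly GRCm38.p6. RefSeq promoter windows of 300 bases, from 250 before to 50 after the annotated start, were used for 6 of the 10 genes: C1qb, C1qc, Cx3cr1, Fcer1g, Aif1 and Lyz2. C1qa and Tyrobp had no window in the source used. The windows of Csf1r and Cd14 were left out of the search, so the count below does not cover them. The letters GAGGAA, the core of the PU-box bound by the myeloid transcription factor PU.1 (encoded by Spi1), were searched on both strands. They occurred in 3 of the 6 windows, those of C1qb, C1qc and Aif1, and in 28.3% of all 32851 promoter windows of that length. The windows of C1qb and C1qc are shown because these neighbours encode chains of the same protein, and that of Cx3cr1 as the window of a microglial receptor gene without the letters. All 3 are on the minus strand of GRCm38.p6, at chr4:136886151-136886450 for C1qb, chr4:136892865-136893164 for C1qc and chr9:120068247-120068546 for Cx3cr1, and are written 5′ to 3′ with GAGGAA, or TTCCTC where it is on the opposite strand, in capitals.
C1qb: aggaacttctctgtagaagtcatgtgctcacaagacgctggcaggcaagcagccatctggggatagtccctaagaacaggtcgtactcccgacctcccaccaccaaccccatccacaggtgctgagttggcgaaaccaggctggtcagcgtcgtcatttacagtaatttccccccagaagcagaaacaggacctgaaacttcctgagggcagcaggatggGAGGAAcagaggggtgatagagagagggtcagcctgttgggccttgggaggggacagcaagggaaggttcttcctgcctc
C1qc: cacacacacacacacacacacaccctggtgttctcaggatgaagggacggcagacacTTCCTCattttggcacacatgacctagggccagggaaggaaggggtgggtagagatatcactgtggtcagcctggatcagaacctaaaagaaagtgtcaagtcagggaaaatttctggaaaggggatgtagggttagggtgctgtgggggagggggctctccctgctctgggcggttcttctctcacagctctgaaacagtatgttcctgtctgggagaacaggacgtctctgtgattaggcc
Cx3cr1: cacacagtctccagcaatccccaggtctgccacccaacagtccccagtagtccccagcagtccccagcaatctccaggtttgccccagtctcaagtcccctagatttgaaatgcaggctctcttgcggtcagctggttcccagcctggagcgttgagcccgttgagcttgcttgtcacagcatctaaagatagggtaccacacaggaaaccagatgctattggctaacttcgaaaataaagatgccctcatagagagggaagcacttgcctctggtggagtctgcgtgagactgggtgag
A match of these letters is a description of the sequence, not a binding site. In C1qb the match began 30 bases before the annotated start, and in C1qc 193 bases before it.

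Retinal signal was present on every array, though retinal genes alone cannot show that no other tissue was. All 7 retinal genes used as a check (Sag, Pde6b, Pde6g, Nrl, Rlbp1, Pax6 and Snap25) had signal in every pool. Signal was judged against 61 genes that belong to other organs (kidney, liver, lung, gut and testis among them), called unrelated genes below: a gene was above background when its scaled intensity passed the 90th percentile of those genes in each pool, 328, 396 and 372 in pools 1, 2 and 3. A lower bar at their 75th percentile, 135, 180 and 185, is given beside it. Probe sets differ in how strongly they hybridise, so intensities of different genes were not ranked against each other, and a gene under a bar may still be expressed. Pool 1 stood apart in 2 ways. Its 3' to 5' ratio for the Actb control transcript was 1.81 against 1.27 and 1.30, whereas the ratio for the Gapdh control differed less, at 0.874 against 0.788 and 0.812. The summed intensity of 12 lens genes, 26967, was below the 127518 and 136902 of pools 2 and 3. Lens signal was nonetheless present in every pool: 6 of these 12 genes passed the higher bar in all 3 pools, against 39.7% of all genes. Cryaa, a lens crystallin gene, was at 7413, 38200 and 39990.

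C1qc alone of the 10 genes was above background in all 3 pools, where 39.7% of all genes were. With the lower bar 5 of the 10 passed in every pool (C1qa, C1qc, Cx3cr1, Csf1r and Cd14), against 56.6% of all genes. At bars between them, added after the data were seen, 4 passed (C1qa, C1qc, Cx3cr1 and Cd14): with the 85th percentile, where 46.5% of all genes passed, and with the 80th, where 52.9% did. The count of 1 is thus the low end of what bars from the 75th to the 90th percentile gave, and at none of these bars was the share of the 10 genes above that of all genes. The remaining members, C1qb, Tyrobp, Fcer1g, Aif1 and Lyz2, did not reach the lower bar in all pools by their chosen probe set, and Fcer1g, Aif1 and Lyz2 lay near or below the floor, the 20th percentile of all scaled values, under which values have no order. The count at the higher bar rested on pool 2. Without it 3 genes passed, C1qc, Cx3cr1 and Cd14, where 41.8% of all genes did. Without pool 1 C1qc alone passed, where 40.3% of all genes did. Among the unrelated genes, the skin genes Krt10, Krt1 and Flg were highest in pool 2 and above its bar. They were at 606, 898 and 311, at 291, 686 and 287, and at 59.4, 553 and 56.4. Lor, also a skin gene, was highest in pool 1. The part of these genes in the pool 2 bar was not tested.

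**Figure D1:**
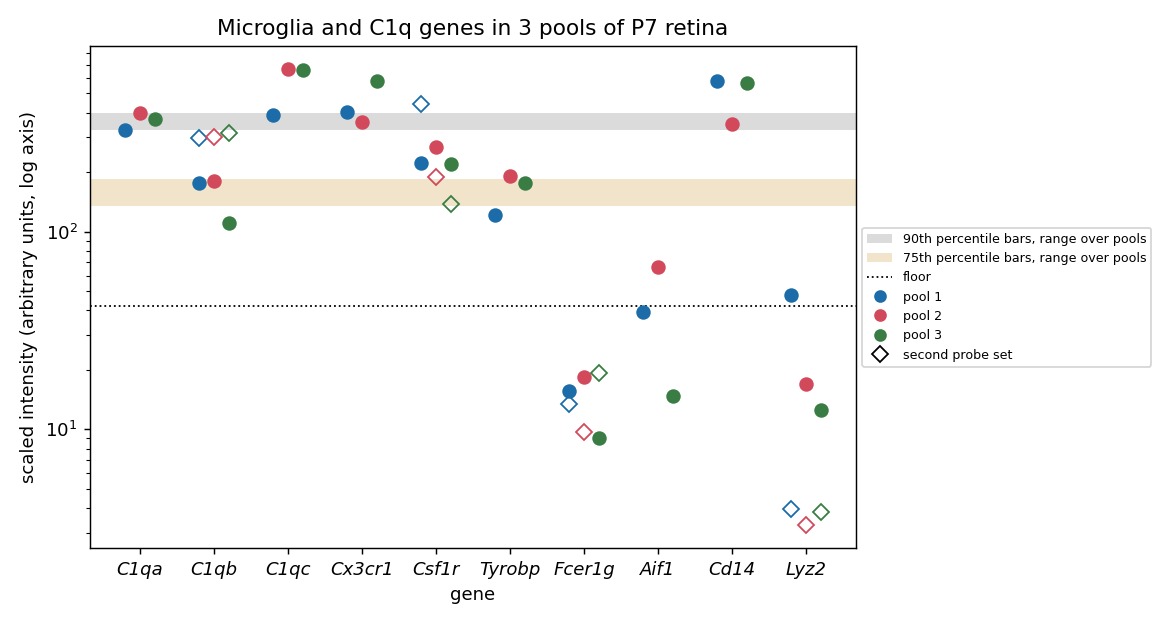
Scaled intensity of each of the 10 genes (vertical log axis, arbitrary units) in pools 1, 2 and 3, with filled circles for the chosen probe set, open diamonds for the second probe set, bands for the background bars over the pools and a dotted line for the floor of 42.2. C1qc is above its pool's higher bar in each pool, by the least in pool 1, while Fcer1g, Aif1 and Lyz2 lie near or below the floor.

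Of the C1q chain genes, C1qc passed the higher bar in every pool and C1qa and C1qb did not. C1qc, the C chain gene, had scaled intensities of 387, 667 and 654 in pools 1, 2 and 3 (569 ± 158, mean ± SD, n = 3 pools, as for the values below). It was low in pool 1 and alike in pools 2 and 3, with 5, 3 and 3 of the 61 unrelated genes brighter. Pool 1 was also the pool of the lowest lens signal and of the highest Actb ratio, whose part in the low C1qc value was not tested. C1qa, the A chain gene, was at 327, 400 and 370 (365 ± 36.7), within 1.22-fold over the pools. These values straddled the higher bar, at 0.994, 1.01 and 0.994 times it, and were above the lower bar throughout, so the call for C1qa turned on where the bar was set.

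C1qb, the B chain gene, was read by 2 probe sets that did not behave alike. The chosen one was at 176, 180 and 111 (156 ± 38.8), lowest in pool 3 and under the higher bar everywhere. The second, of a type for which fewer unique probes than usual could be picked, was at 298, 302 and 316 (305 ± 9.48), almost level over the pools. Both lay under the higher bar, but the second was above the lower bar in all pools, which the chosen one was not. The fall in pool 3 was seen with the chosen probe set only. C1qa and C1qc were lowest in pool 1, and the chosen probe set of C1qb in pool 3. The second probe set of C1qb varied by 1.06-fold, with its lowest scaled value in pool 1. As deposited, it was lowest in pool 2, at 310, 277 and 329. The lowest pool of C1qb thus depended on the probe set, and for the second one on the scaling.

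The receptor genes of microglia had signal between the bars or above the higher one. Cx3cr1, the fractalkine receptor gene, was at 402, 357 and 578 (446 ± 117). Its pool 2 value was 0.901 times the higher bar, while pools 1 and 3 were above it. Cd14, the co-receptor gene for bacterial lipopolysaccharide, was at 581, 351 and 562 (498 ± 128). Cd14 was thus also lowest in pool 2, where it was 0.884 times the bar, and its values in pools 1 and 3 were close together. Pool 2 was the pool with the highest globin signal, Hba-a1 being at 2914, 6705 and 2821, and the summed intensity of the 5 measured red blood cell genes was 3827, 7947 and 3475. Most of that sum was Hba-a1. In that list Hba-a1 and Hbb-b2 were above the higher bar, and Epb42 was below the floor in every pool. Alas2, at 113, 151 and 60.7, was also highest in pool 2, but Slc4a1, at 135, 46.3 and 123, was lowest there. The part of blood in the pool 2 values of Cx3cr1 and Cd14 was not tested.

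Csf1r, the receptor gene for colony-stimulating factor 1 and interleukin-34 on which microglia depend, also had 2 probe sets in disagreement. The chosen one was at 221, 268 and 219 (236 ± 27.6), which lay between the bars in all pools and varied by 1.22-fold. The second, of a type picked under relaxed probe selection rules, was at 440, 190 and 137 (256 ± 162), highest in pool 1 and 3.21-fold over the pools. This second probe set was above the higher bar in pool 1 and under the lower bar in pool 3. The pool order of Csf1r, and whether it passed the lower bar in all pools, therefore depended on the probe set.

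The adaptor genes and the remaining members were dim. Tyrobp, the adaptor for TREM2 and related receptors, was at 121, 191 and 176 (163 ± 36.9), above the lower bar in pool 2 but not in pools 1 and 3. Fcer1g, the gene for the common gamma chain of Fc receptors, was at 15.7, 18.3 and 9.02, and its second probe set at 13.4, 9.69 and 19.4. Both were below the floor of 42.2 in all pools, so their pool order carries no information. Aif1, which encodes the microglial marker protein IBA1, was at 39.1, 66.0 and 14.8, above the floor in pool 2 only. Lyz2, the lysozyme gene of myeloid cells, was at 48.0, 17.0 and 12.6, above the floor in pool 1 only, with its second probe set at 3.94, 3.27 and 3.84. In pool 3, 57, 56 and 56 of the 61 unrelated genes were brighter than Fcer1g, Aif1 and Lyz2.

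No probe set of the 10 genes passed the test for excess spread between pools, although several varied more than was typical for their level. Each pool was 1 array, so the difference between any 2 pools has no error of its own. The spread over the 3 pools was tested with limma against the variance of probe sets of similar level, over the 6211 brighter probe sets, of which 1.34% had excess spread at an adjusted p below 0.05. Of the 14 probe sets of the 10 genes, 7 were bright enough to be tested. None had excess spread by limma, and 1 had an unadjusted p below 0.05, the second probe set of Csf1r (limma adjusted p = 0.420). The log2 SD over the pools was 0.45 for C1qc, 0.41 for Cd14 and 0.36 for Cx3cr1, against 0.31, 0.32 and 0.33 for probe sets of their level, and 0.15 for C1qa against 0.34. C1qc had a limma adjusted p of 0.958, and C1qa, Cx3cr1 and Cd14 each had 0.992. A p above the threshold does not show that the pools were alike.

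Of the 5 genes above the lower bar in all pools, none had its highest pool more than 2-fold over its lowest, where 5.85% of all such genes did. With that share, none in 5 says little. The median fold of these 5 genes, highest over lowest pool, was 1.62, against 1.38 for the 4669 genes above the lower bar and 1.44 for all genes. The widest were C1qc at 1.72-fold, Cd14 at 1.66-fold and Cx3cr1 at 1.62-fold. C1qa and C1qc were lowest in pool 1 (37.8% of all such genes were), Cx3cr1 and Cd14 in pool 2 (18.1%) and Csf1r in pool 3 (44.1%). Over all 10 genes, including those at the floor, the log2 deviation from a gene's mean over the pools had a median of -0.10, 0.16 and 0.01 in pools 1, 2 and 3. Over all 8251 genes it was -0.01, 0.05 and -0.03, and over the 3274 genes above the higher bar -0.05, 0.14 and -0.09. The 7 genes above the floor in every pool kept their lowest pool when arrays were left unscaled or were quantile-normalised, but 2 of them, Cx3cr1 and Csf1r, kept their highest under both: without scaling the highest pool moved from pool 2 to pool 3 for C1qa, C1qc and Tyrobp and to pool 1 for C1qb, and after quantile normalisation to pool 3 for C1qc and Cd14.

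**Figure D2:**
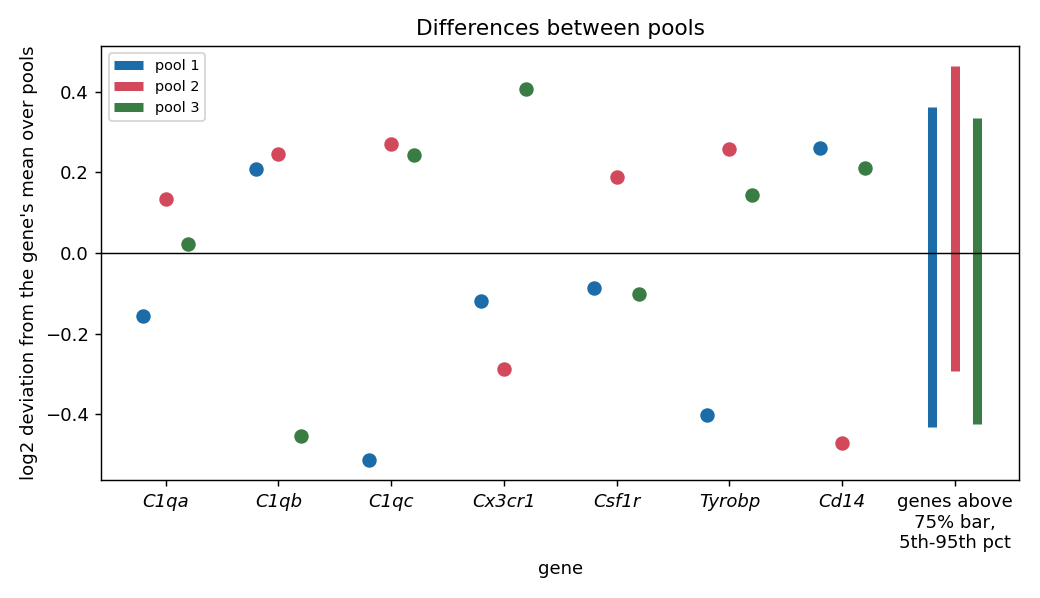
Log2 deviation of each gene's scaled intensity from its own mean over the 3 pools (vertical axis), for the 7 genes whose chosen probe set was above the floor in every pool, coloured by pool. The bars at the right span the 5th to 95th percentile of the 4669 genes above the lower bar in all pools. C1qb and Tyrobp are shown but are not among those genes. Outside their pool's span fall C1qc in pool 1, at -0.51, and Cd14 in pool 2, at -0.47. So do Cx3cr1 in pool 3, at 0.41, and C1qb in pool 3, at -0.45.

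The genes with the pool pattern nearest to that of C1qc, the C1q gene above the higher bar, were Ruvbl2, Pcsk1n and Zdhhc9. Likeness was the Euclidean distance between log2 deviations over the 3 pools, which was 0.01, 0.02 and 0.02. Ruvbl2 was at 754, 1304 and 1273. In all, 24 of 3273 genes lay within 0.1 of C1qc, so 3 pools hardly separate patterns.

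Other genes of microglia and myeloid cells gave much the same picture. Of 30 listed genes 21 were measured, and 3 were above the higher bar in all pools, where 39.7% of all genes were. They were Sparc at 2011, 1244 and 1287, Apoe at 5366, 6568 and 3413, and Cd63 at 1586, 1509 and 1053. All 3 are also made by other cells of the retina or of its vessels, and so do not mark microglia. Cebpa, Ctss and Cd68 passed the lower bar only, so that 6 of the 21 passed it, against 56.6% of all genes. Ctss, which encodes the lysosomal protease cathepsin S of microglia, was at 373, 437 and 338 (382 ± 50.4), and Cd68, a macrophage lysosomal membrane protein gene, at 224, 207 and 212 (214 ± 8.58). The second probe set of Cd68 was below the floor in all pools, at 5.20, 3.27 and 4.99, and that of Apoe, at 18.7, 40.3 and 115, was below the lower bar. Below the floor in all pools by their chosen probe set were Itgam, Ptprc, Fcgr2b and Fcgr1, of which Itgam and Ptprc encode the defining surface proteins CD11b and CD45. The second probe set of the Fc receptor gene Fcgr1 was at 253, 182 and 209, above the lower bar in all pools. That of Laptm5, at 298, 328 and 416, was also above the lower bar in all pools, and above the higher bar in pool 3. The chosen probe set of Laptm5, at 82.1, 116 and 107, was under the lower bar in all pools. Spi1, the gene for PU.1, was at 211 and 51.9 in pools 1 and 3 and under the floor in pool 2. The microglia markers P2ry12, Tmem119, Sall1 and Trem2 were not analysed here. The label of microglia thus rests on C1qc, and on Cx3cr1, Cd14 and Ctss, each above the higher bar in 2 of 3 pools. It rests also on C1qa and the chosen probe set of Csf1r at the lower bar. In contrast, the chosen probe sets of Itgam, Ptprc and Fcer1g were below the floor in all pools, and those of Aif1 and Lyz2 in 2 of 3. Tyrobp, Irf8, Itgb2, Cd53 and Fcgr3 did not pass the lower bar in all pools either.

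Markers of other blood-borne and border cells were mostly dim as well. For comparison, 39.7% of all genes passed the higher bar in all pools and 56.6% the lower one. None of the 5 measured genes of border macrophages (Mrc1, Lyve1, Pf4, Cbr2 and Stab1) passed either bar in all pools, and their summed intensity was 247, 481 and 412. Among 12 genes of neutrophils and monocytes, Csf3r passed the higher bar at 913, 541 and 1049, lowest in pool 2 as Cx3cr1 and Cd14 were, and Elane the lower bar only, at 182, 287 and 277. The other probe sets of Csf3r, at 42.7, 41.5 and 60.8 and at 18.2, 20.2 and 42.1, were near or below the floor. S100a9, Ngp and Ccr2 of that list were below the floor in every pool, and the summed intensity of the list was 1621, 1783 and 1885. None of 13 genes of lymphocytes, natural killer cells and mast cells passed the higher bar and 3 passed the lower one, while Cd3d, Cd3g, Cd8a, Cpa3 and Mcpt4 were below the floor throughout. The summed intensity of that list was 1241, 1178 and 1807. The part of these cells in the values of Cd14 and Cx3cr1 was not tested.

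**Figure D3:**
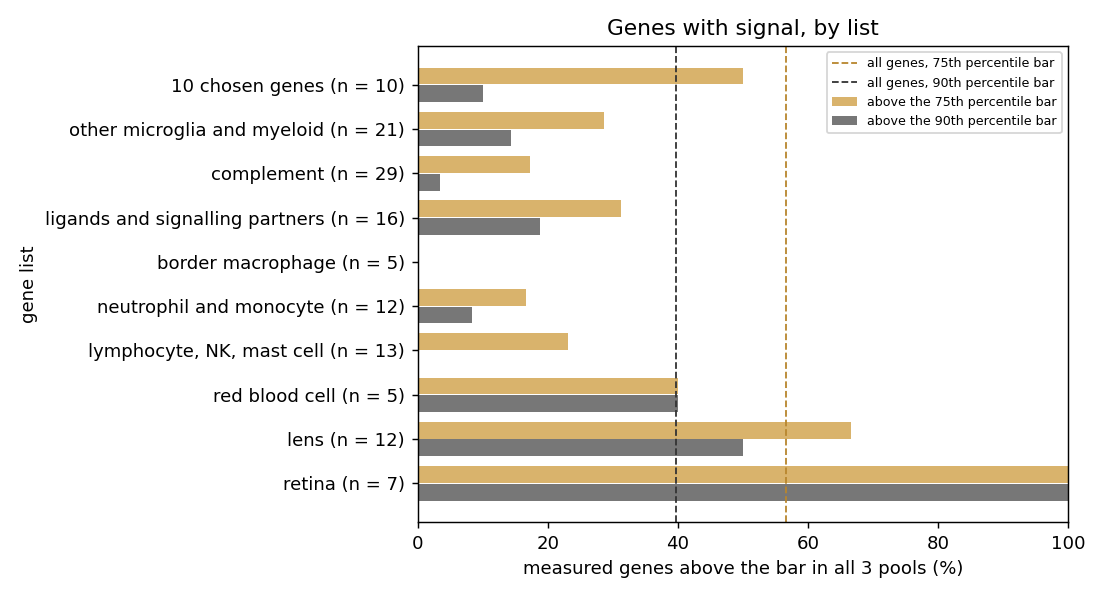
Share of the measured genes of each list (horizontal bars, percent, number measured in brackets) above the lower bar (tan) and the higher bar (grey) in all 3 pools, with dashed lines at 56.6% and 39.7% for all genes. Of the 10 chosen genes 5 pass the lower and 1 the higher bar, and all 7 retinal genes pass both.

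Of the ligand genes of the microglial receptors, Cx3cl1 passed the higher bar in all pools by its chosen probe set and Csf1 the lower bar only. Cx3cl1, the fractalkine gene, which neurons express, was at 573, 521 and 563 (552 ± 27.5), above the higher bar and within 1.10-fold over the pools. Its second probe set, of the relaxed type, was at 304, 109 and 111 and did not follow. Csf1, a ligand gene of Csf1r, was at 240, 310 and 296 (282 ± 36.8), between the bars. Downstream of Tyrobp and Fcer1g, Syk was at 449, 364 and 435 (416 ± 45.2), above the higher bar in pools 1 and 3, while its second probe set was below the floor in all pools. The signalling genes Fyn (899 ± 105) and Grb2 (726 ± 58.4), which many cell types express, passed the higher bar. Of the 16 measured genes of this list 3 passed it and 5 the lower one, against 39.7% and 56.6% of all genes. The Fc receptor gene Fcer1a was below the floor in all pools.

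The rest of the complement system was dim by comparison with the bars. Of 29 measured complement genes 1 passed the higher bar in all pools, and 5 the lower bar, against 39.7% and 56.6% of all genes. The gene that passed was Clu, encoding clusterin, an inhibitor of the terminal complex that is made by many cells, at 619, 848 and 660 (709 ± 122). Its second probe set, at 200, 259 and 322, passed the lower bar only. Among the proteases that act with or after C1q, C1ra was at 252, 55.2 and 68.3 and C2 at 75.6, 123 and 124, and neither passed the lower bar in all pools. The second probe set of C1ra ran the other way, at 42.5, 132 and 169. Of the regulators, Serping1, the C1 inhibitor gene, was at 262, 223 and 310 (265 ± 43.8), Cr1l, a regulator of C3 convertases, at 297, 227 and 388 (304 ± 80.5), and Cd59a, which blocks the terminal complex, at 140, 283 and 245 (223 ± 73.8). These 3 passed the lower bar in all pools by their chosen probe set. The second probe set of Cr1l, at 113, 198 and 86.7, did not. Among receptors, C5ar1, the C5a receptor gene, passed the lower bar only, at 179, 212 and 328 (240 ± 78.4), whereas C3ar1, the C3a receptor gene, was at 102, 115 and 68.3. Itgam and Itgb2, which encode the subunits of complement receptor 3, did not pass, Itgam being below the floor in all pools and Itgb2 in pools 1 and 3, with 58.1 in pool 2. Of the 29 genes, 8 were below the floor in all pools by their chosen probe set: Masp1 and Mbl1 of the lectin pathway, C4bp, Cfi, Cd55, Cd46 and Cr2, which encode regulators or receptors, and Itgam. No share over all genes is given for that count. C3 and C4b were not analysed here.

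**Figure D4:**
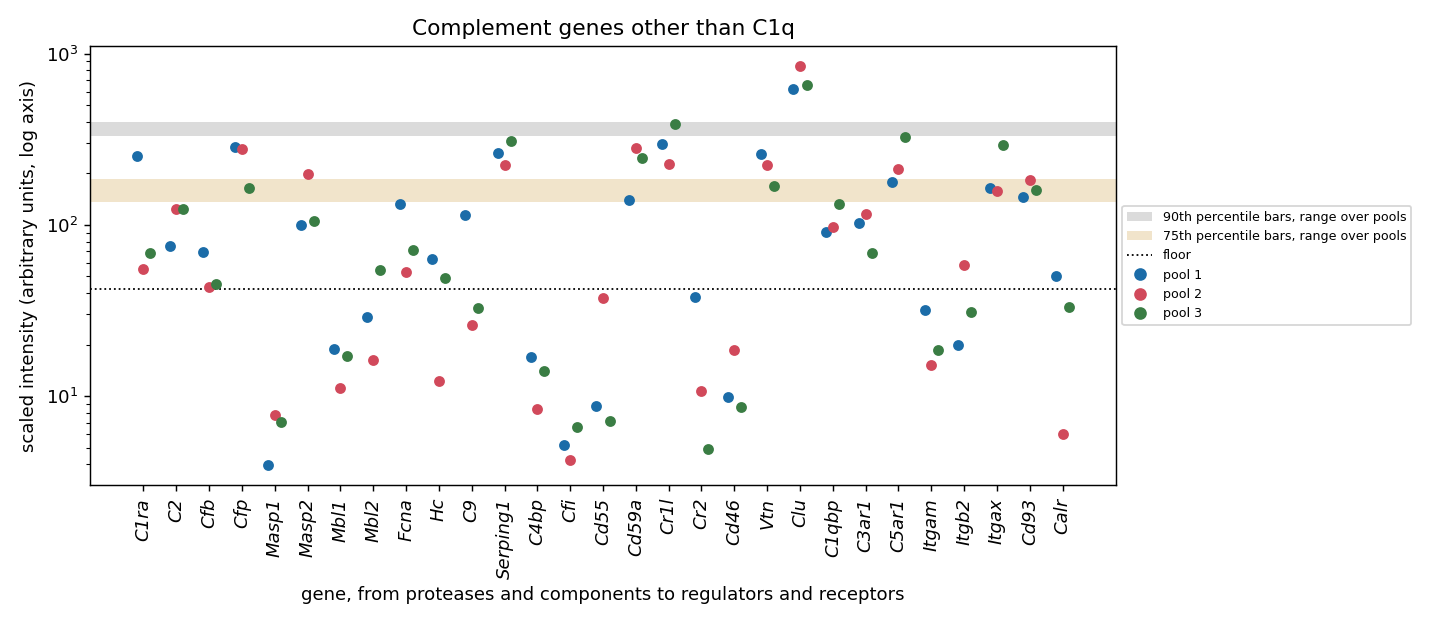
Scaled intensity (vertical log axis, arbitrary units) of the 29 measured complement genes other than C1q in pools 1, 2 and 3, ordered from proteases and components to regulators and receptors, with the background bars as bands and the floor as a dotted line. Clu is the gene above the higher band in all pools, and 8 genes lie below the floor in all of them.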

How the data were processed

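The values were intensities per probe set that the authors deposited on a linear scale. Which program produced these numbers, and whether background was subtracted, is not given in the sources used here. On every array the mean of the deposited intensities, trimmed by 2% at either end, was 500.2 or 500.3, so each had been scaled. Symbols came from the platform annotation, updated by gene ID through RefSeq (10817 of 10833 probe sets with 1 gene; 396 had several genes and 1193 were unnamed here). Each gene was represented by a probe set without a letter suffix where there was one, then the brightest. Arrays were scaled to a common median (factors 0.962, 1.09 and 0.959, a log2 shift of -0.06, 0.12 and -0.06), floored at the 20th percentile, 42.2, and put on the log2 scale.

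Excess spread was tested with limma 3.58.1 in R 4.3.3: the variance over the 3 pools (2 residual degrees of freedom) against the prior of squeezeVar (robust, mean level as covariate), on the brightest 50% of probe sets, with Benjamini-Hochberg adjustment over all of them. The labels say no more of the replicates than that each pooled several mice; a p-value here reflects sample-to-sample spread, technical parts included. The number of arrays limits the precision.

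The members and lists were chosen with earlier results of these data known. Named were all 10 members; up to 8 genes above the higher bar from each of the lists of microglia, complement and ligands, and up to 3 from each other list; and the 3 genes nearest to C1qc. Other genes named were chosen after their values were seen. Other scalings, floors, bars, probe set rules and filters were tried, and each pool was left out in turn.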

Additional observations from a re-analysis of the deposited data

How the results depend on the processing

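The number of the 10 genes above background in all pools, 1, was 5 with the 75th percentile of the unrelated genes as the bar, 4 with the 80th and 4 with the 85th (both added after seeing the data) and 0 with the 95th, where 28.6% of all genes passed. It was 1 to 3 when each pool was left out, where 40.3% to 42.3% of all genes passed. Under the other scalings, floors and probe set rule it was 1, where 37.7% to 39.7% of all genes passed. Over the whole array limma called 83 probe sets, against 6 without scaling, 6 when quantile-normalised, 0 when dim probe sets were kept (141 at an unadjusted p below 0.05), 27 in the brightest 25% and 38 without limma's robust option, and was 9 to 30 when each pool was left out. No chosen probe set of the 10 genes was called by limma under any of these, but not all were tested in each. In the brightest 25% no probe set of the 10 genes was tested. The chosen probe sets of C1qb, Tyrobp, Fcer1g, Aif1 and Lyz2 were tested only with dim probe sets kept. There limma called 0 on the whole array, so that setting decides nothing for these genes. In the settings where the limma test covered them, the lowest adjusted p was 0.266, with dim probe sets kept. The median log2 deviations of the 10 genes lay, over the alternatives, between -0.11 and 0.00 in pool 1, 0.03 and 0.16 in pool 2, and -0.03 and 0.04 in pool 3, against -0.10, 0.16 and 0.01 as reported, so that the sign in pool 3 changed with the setting. The bars depend on the genes of unrelated tissues that were listed, and a list with lower bars would let more of the 10 genes pass, as the counts at lower percentiles show. Values below them limit what 3 arrays can show for most of these genes.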
